A study of Gallus gallus with 4 samples.

Results

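The genes described here are 10 chicken receptors for neuropeptides and peptide hormones: AVPR1B, AVPR2, BDKRB2, CRHR1, MC2R, MC4R, MC5R, NPY1R, NPY2R and PRLHR2. They were chosen as the array probes whose RefSeq accession belongs to one of these genes. Each had 1 probe so named, so 10 probes were followed, among 51 probes that carry a gene symbol for 50 genes and 42034 probes in all. Symbols were matched through RefSeq identifiers alone. Other probes of these genes may lie among the probes without a symbol, so detection below is that of the named probes. Total RNA came from 4 cultures of DT40, a chicken B lymphoma line grown at 38.5 °C with 10% fetal calf serum and 1% chicken serum. The groups were DT40 expressing OsTIR1 with 500 µM indole-3-acetic acid (IAA, the natural auxin of plants), DT40 expressing OsTIR1 without IAA, parental DT40 with 500 µM IAA and parental DT40 without IAA, all harvested at 6 h. OsTIR1 is the rice F-box protein that plants use to sense auxin. The labels name neither its promoter in these cells nor whether the line is 1 clone. IAA was added in ethanol, and the labels do not say whether untreated cultures received ethanol. The study asked whether auxin switches on particular genes in animal cells. Each group is 1 array, so no difference below has a replicate check, and their small number limits precision.

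All 10 genes encode G protein-coupled receptors, proteins of the cell surface that pass the binding of a peptide outside the cell to G proteins inside it. Most are known from the nervous system, the pituitary, the adrenal gland, the kidney or blood vessels, and a few also occur on immune cells. Their transcripts are often scarce, so whether a probe rises above background is the first thing to read. No probe or protein sequence of these genes was in the files used here, and none is shown. The array files give no part of the transcript that each probe covers. By gene order in the RefSeq annotation of assembly GRCg7b, MC2R and MC5R lie side by side with 0 annotated genes between them. The array grid was built on galGal2, and positions are not carried over from the newer assembly.

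Detection differed between the receptors. CRHR1 and PRLHR2 were well above background on all 4 arrays, AVPR2 on the array of untreated parental DT40 alone, and the other 7 on none. Well above background is a flag of the scanner software for a spot that clearly exceeds the noise of its background. The flag was set on all 4 arrays for 46.2% of all 42034 probes and for 44% of the 50 genes with a symbol, and on none of the arrays for 39.6% of all probes. On single arrays it was set for 55.4% of probes in IAA-treated OsTIR1 cells, 58% in untreated OsTIR1 cells, 49.9% in IAA-treated parental DT40 and 47.8% in untreated parental DT40. An array level averages a whole culture, so fewer expressing cells and less RNA per cell cannot be told apart.

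**Figure D1:**
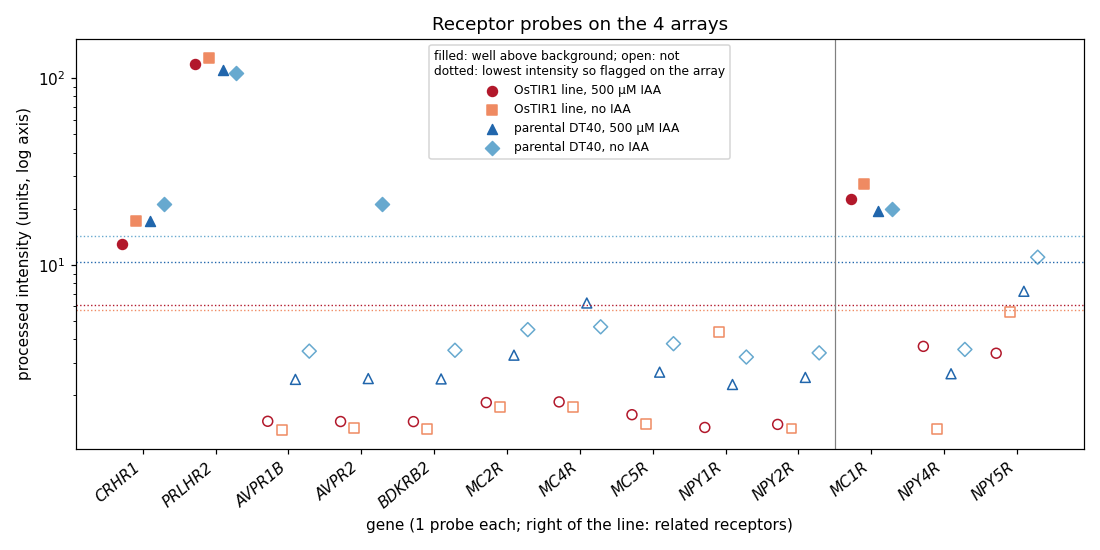
Processed intensity (units, log axis) of the 10 receptor probes and of 3 related receptors on the 4 arrays, 1 point per array. Most open points are replacement values for spots too low to measure. Filled points are well above background, open points are not, and dotted lines mark the lowest intensity so flagged on each array; PRLHR2, CRHR1 and MC1R are filled on all 4 arrays, and AVPR2 on the array of untreated parental DT40 alone.

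PRLHR2, a receptor for prolactin-releasing peptide, had an intensity of 119.8 units in IAA-treated OsTIR1 cells, 129.2 in untreated OsTIR1 cells, 111.4 in IAA-treated parental DT40 and 107.2 in untreated parental DT40. Both OsTIR1 arrays were above both parental arrays. On the log2 scale relative to the array's 75th percentile, used for every level below, these are -0.49, -0.41, -0.59 and -0.72. The lowest and the highest of the 4 levels lay 0.31 apart, and the difference of that pair, untreated parental DT40 minus untreated OsTIR1 cells, was -0.31 with a nominal 95% interval of -0.72 to 0.10. The 95% intervals of neighbours in the order of levels included 0 as well. Such an interval comes from the scanner software's error estimate of the 2 spots and holds no variation between cultures.

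CRHR1, the receptor through which corticotropin-releasing hormone drives the pituitary arm of the stress response, was dim but lit on every array. Its intensity was 12.9 units in IAA-treated OsTIR1 cells, 17.2 in untreated OsTIR1 cells, 17.3 in IAA-treated parental DT40 and 21.2 in untreated parental DT40. The dimmest spot still flagged had 6.12, 5.71, 10.4 and 14.3 units on the same arrays in that order, so CRHR1 stood nearer to this limit on the parental arrays. Its levels were -3.70, -3.32, -3.28 and -3.06. IAA-treated OsTIR1 cells were lowest and untreated parental DT40 highest, and the difference of that pair was -0.65 (-1.35 to 0.06). The 95% interval of each neighbouring pair in this order included 0.

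AVPR2, a vasopressin receptor that in mammals controls water recovery in the kidney, had an intensity of 21.2 units in untreated parental DT40 and was at the replacement value for unmeasurable spots on the other arrays. These values were 1.45 units in IAA-treated OsTIR1 cells, 1.34 in untreated OsTIR1 cells and 2.46 in IAA-treated parental DT40. Its signal was present on 1 array of 4, a pattern that 0.766% of all probes showed for this array. Bounds were taken with the lowest flagged intensity of the dim array as a limit, and they leave out spot error. The error estimate of the AVPR2 spot in untreated parental DT40 was 4.09 units. The lowest flagged intensity is also no strict limit: in untreated OsTIR1 cells INHA was unflagged at a level of -4.89. The bounds are thus not firm floors. By them, AVPR2 was at least 1.94-fold lower in IAA-treated than in untreated parental DT40. In untreated OsTIR1 cells it was at least 3.60-fold lower than in untreated parental DT40. Of probes lit on either array alone of these pairs, 38.6% were bounded at 1.5-fold or more for IAA in parental DT40. For the line without IAA 12.6% were. The lowest flagged level was -3.62 in untreated parental DT40, -4.01 in IAA-treated parental DT40 and -4.91 in untreated OsTIR1 cells. Part of each AVPR2 bound is this gap between arrays. Shares for the direction of AVPR2 alone are not given, so those above do not show how unusual its bounds are.

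Around the AVPR2 spot, a larger share of otherwise dark probes than elsewhere was lit on the array of untreated parental DT40. The median local background was 19 units around AVPR2 and 18 over that whole array. Among the 200 probes nearest to AVPR2, within 0.554 mm, 80 were dark on the other 3 arrays. Of these, 20 (25%) were lit in untreated parental DT40, against 1.90% over the whole surface of that array. The 20 lit neighbours had intensities from 17.6 to 41.2 units with a median of 20.6, and 9 of them were at least as bright as AVPR2. In the same surroundings the share lit on 1 array alone was 1.69% in IAA-treated OsTIR1 cells, 14.3% in untreated OsTIR1 cells and 0% in IAA-treated parental DT40. Over the whole surface these shares were 2.31%, 7.43% and 1.36% in that order. The untreated parental share fell off with distance, at 21.1% within 1 mm, 5.15% between 2 and 3 mm and 0.552% between 4 and 6 mm.

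Some negative control spots, which match no chicken transcript, were bright there too. The 5 brightest of the 153 such spots on the array of untreated parental DT40 all lay within 3 mm of AVPR2, a distance chosen after the values were seen, where 17 of the 153 lie. Of these 17, 2 were well above background, and their median was -1.80 units, against -2.81 for the other 136. The brightest had a background-subtracted intensity of 37.7 units, above the 21.4 units of AVPR2 itself on that scale. On the other arrays 0, 1 and 0 of the 5 brightest lay there, in IAA-treated OsTIR1 cells, untreated OsTIR1 cells and IAA-treated parental DT40. The part of these surroundings in the AVPR2 signal was not tested.

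**Figure D2:**
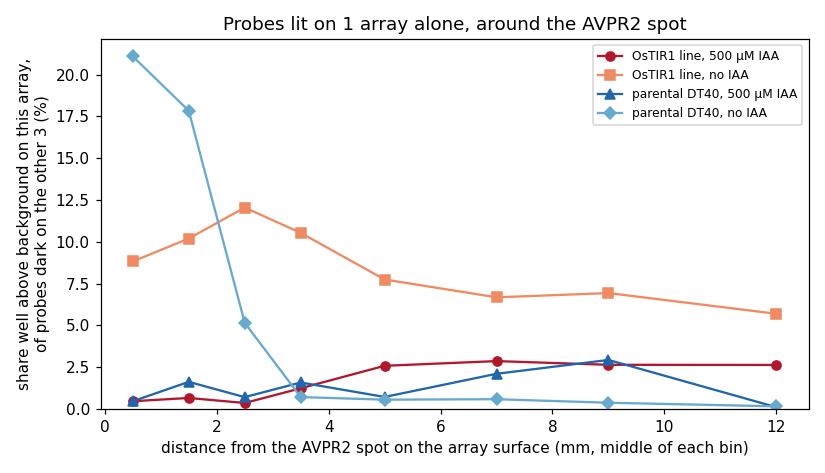
Share of probes well above background on the named array (%), among probes dark on the other 3 arrays, by distance from the AVPR2 spot on the array surface (mm). The line of untreated parental DT40 starts at 21.1% within 1 mm and drops to 0.552% between 4 and 6 mm, while the IAA-treated OsTIR1 and IAA-treated parental lines stay at or below 2.93%. The line of untreated OsTIR1 cells starts at 8.82% within 1 mm, reaches 12.0% between 2 and 3 mm and is at 5.69% between 10 and 14 mm.

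Other receptor spots lay in or near the same area. BDKRB2, the bradykinin receptor of blood vessels and smooth muscle, lay 0.596 mm from AVPR2 and MC5R, a melanocortin receptor found in many tissues including exocrine glands, lay 1.68 mm away. Their surroundings were lit in untreated parental DT40 alone for 15.6% and 32.1% of otherwise dark probes. Neither gene was well above background on that array, and their 3.49 and 3.79 units are replacement values for unmeasurable spots. CRHR1 lay 2.57 mm from AVPR2, and 0 of the 87 dark probes nearest to it were lit on that array. PRLHR2 lay 6.86 mm away, with 2 of 73 (2.74%) lit. The shares lit in untreated OsTIR1 cells alone were 6.25% around BDKRB2, 22.5% around MC5R, 11.1% around CRHR1 and 7.79% around PRLHR2. Over the whole surface of the untreated OsTIR1 array the share was 7.43%.

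The 7 receptors lit on no array fall into 4 ligand families. In the vasotocin family it was AVPR1B, whose annotated synonym AVT2R names a vasotocin receptor of birds, and in the kinin family BDKRB2. In the melanocortin family these were MC2R, the adrenal receptor for corticotropin, MC4R, the receptor of the hypothalamus that curbs feeding, and MC5R. In the neuropeptide Y family they were NPY1R, a receptor that mediates the feeding drive of neuropeptide Y, and NPY2R, which acts largely on nerve endings. Their processed intensities ran from 1.35 to 1.85 units in IAA-treated OsTIR1 cells, 1.30 to 4.39 in untreated OsTIR1 cells, 2.29 to 6.25 in IAA-treated parental DT40 and 3.21 to 4.66 in untreated parental DT40. Most of these are replacement values that follow the noise of each array, so the higher parental values carry no order between lines.

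Before replacement, the 7 spots had background-subtracted intensities on both sides of the negative control median on both OsTIR1 arrays and in IAA-treated parental DT40. On the array of untreated parental DT40 all 7 lay above that median. There the lowest of the 7 exceeded 51.6% of these control spots and the highest 89.5%. The reason for this shift was not tested. The median of the 7 spots was -1.61 units in IAA-treated OsTIR1 cells, -0.65 in untreated OsTIR1 cells, -2.26 in IAA-treated parental DT40 and -0.27 in untreated parental DT40. The negative controls had medians of -1.61, -1.51, -2.64 and -2.76 units on these arrays. The median member stood above 49.7%, 73.2%, 62.1% and 79.1% of the negative controls, in the same order. A transcript of these genes was thus not detectable with these probes at this signal, which does not show that it is absent.

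A weaker flag of the software, for a signal above 0 and significantly above background, added 2 isolated spots. MC4R carried it in IAA-treated parental DT40 at 6.25 units, and NPY1R in untreated OsTIR1 cells at 4.39 units. On the other 3 arrays neither gene had it. The flag was set for 72.1% and 76.5% of all probes on the arrays of IAA-treated and untreated OsTIR1 cells, and for 66.3% on each parental array. Set against the 95th percentile of the negative controls, AVPR1B (IAA-treated OsTIR1 cells), MC4R (both IAA-treated arrays), NPY1R and NPY2R (both in untreated OsTIR1 cells) passed on at most 2 arrays. That level was passed by 75.7%, 81.3%, 70.4% and 68.0% of all probes, and by 4, 4, 3 and 3 of the 10 receptors, in IAA-treated and untreated OsTIR1 cells and IAA-treated and untreated parental DT40. CRHR1 exceeded 100% of the negative controls on both OsTIR1 arrays, 99.3% in IAA-treated parental DT40 and 98.7% in untreated parental DT40. CRHR1 and PRLHR2 alone of the 10 passed on all 4 by either measure, and BDKRB2, MC2R and MC5R passed on none. The matching shares of all probes, on all 4 arrays or on none, are not given for these 2 measures. Of otherwise dark probes near NPY1R and NPY2R, 9.76% and 16.8% were lit in untreated OsTIR1 cells alone, against 7.43% over that surface. Near MC4R the share was 0% in IAA-treated parental DT40, against 1.36%. In IAA-treated OsTIR1 cells it was 0.990% near MC4R and 3.23% near AVPR1B, against 2.31%. The part of these surroundings in the isolated passes was not tested.

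**Figure D3:**
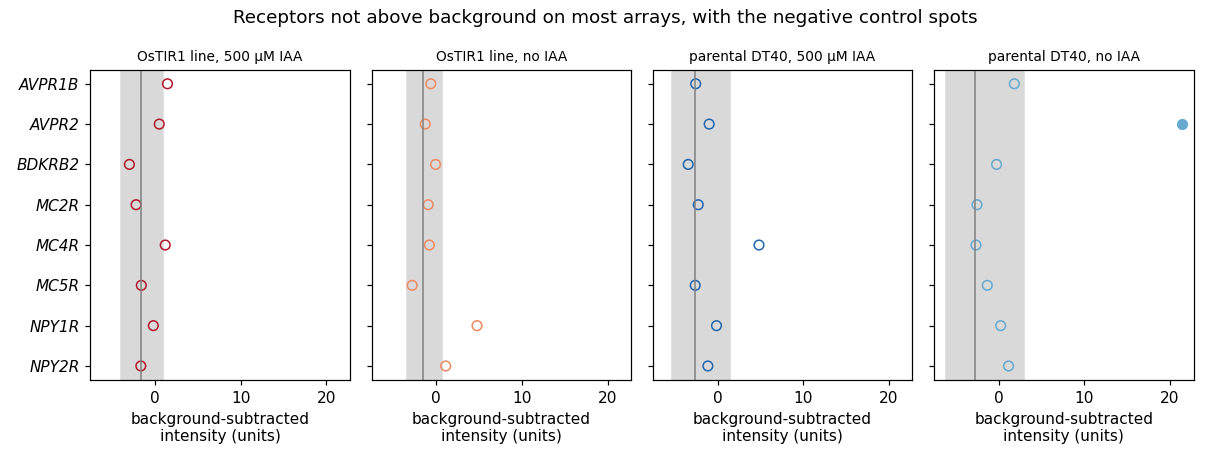
Background-subtracted intensity (units) of the 8 receptors lit on at most 1 array, with 1 panel per array. Grey bands span the 5th to 95th percentile of the 153 negative control spots, grey lines are their median, and filled points are well above background; AVPR2 at 21.4 units in untreated parental DT40 is the one filled point, and MC4R at 4.84 and NPY1R at 4.75 are the next highest.

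IAA was first compared within the OsTIR1 line, where the plant receptor is present. CRHR1 was 0.38 lower with IAA (difference -0.38, 95% interval -0.94 to 0.18) and PRLHR2 0.08 lower (difference -0.08, -0.48 to 0.32). Both intervals include 0. Of the 2 receptors measured on both arrays, 0 were 1.5-fold apart, where 2.19% of all 22873 probes measured on both were. The middle 95% of these probes lay between -0.47 and 0.38. CRHR1 was among the 5719 dimmest of them, whose middle 95% was wider, from -0.71 to 0.60. With median scaling, which moved the median difference of all probes to 0.10, the PRLHR2 difference turned to 0.02. Normexp correction with quantile normalization gave -0.02 for CRHR1 and -0.05 for PRLHR2, and that setting adds 50 units to every signal.

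In parental DT40, CRHR1 was 0.22 lower with IAA (difference -0.22, -0.97 to 0.53) and PRLHR2 0.13 higher (0.13, -0.29 to 0.54). Again 0 of 2 were 1.5-fold apart, beside 1.91% of 19492 probes, whose middle 95% ran from -0.46 to 0.32. For the 4873 dimmest of these, CRHR1 among them, it ran from -0.75 to 0.47. Median scaling shifted the median difference of all probes to 0.16 and gave -0.06 for CRHR1 and 0.29 for PRLHR2. For CRHR1, quantile normalization gave -0.09, cyclic loess -0.14 and normexp correction -0.02. CRHR1 was below its untreated level with IAA in both lines, but both 95% intervals included 0. The IAA difference in the OsTIR1 line minus that in parental DT40 was -0.16 for CRHR1 (-1.10 to 0.78) and -0.21 for PRLHR2 (-0.78 to 0.37).

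**Figure D4:**
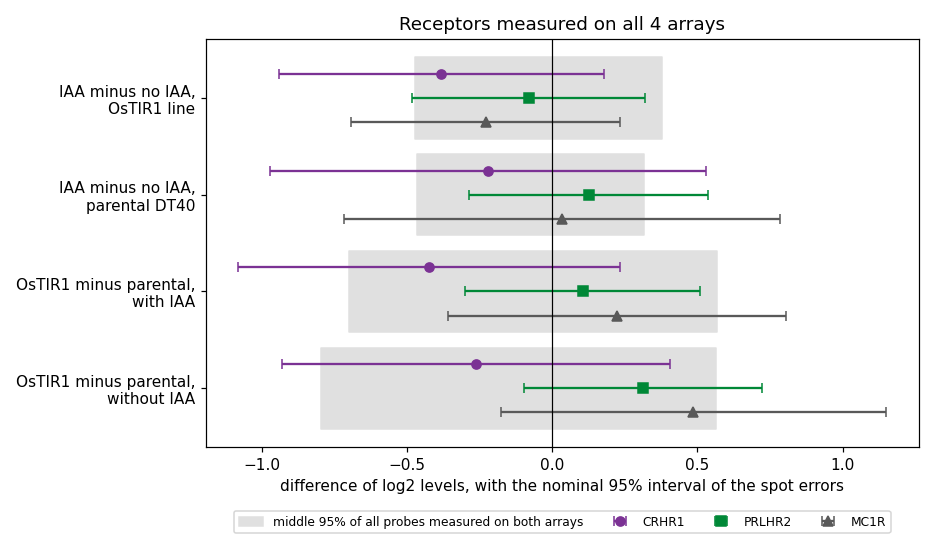
Differences of log2 levels for CRHR1, PRLHR2 and the related MC1R in the 4 comparisons, with nominal 95% intervals from the spot errors (bars). Grey boxes span the middle 95% of all probes measured on both arrays, and all 12 intervals cross 0. CRHR1 and MC1R were among the dimmest of these probes, whose middle 95% was wider in each comparison and is not drawn.

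Between the lines with IAA, CRHR1 was 0.42 lower in OsTIR1 cells than in parental DT40 (difference -0.42, -1.08 to 0.23) and PRLHR2 0.11 higher (0.11, -0.30 to 0.51). Without IAA, CRHR1 was 0.26 lower (difference -0.26, -0.93 to 0.41) and PRLHR2 0.31 higher (0.31, -0.10 to 0.72). CRHR1 lay lower and PRLHR2 higher in OsTIR1 cells in both comparisons, which share no array, yet no interval left out 0. In each, 0 of 2 receptors were 1.5-fold apart, beside 5.86% of 20604 probes with IAA and 6.39% of 19709 without. Normexp correction gave -0.04 for CRHR1 in both comparisons and 0.04 for PRLHR2 with IAA. Median scaling gave -0.16 for CRHR1 without IAA, and subtracting the median of neighbouring probes gave 0.06 for PRLHR2 with IAA. Over the 6 alternatives, CRHR1 ran from -0.47 to -0.04 with IAA and from -0.32 to -0.04 without. PRLHR2 ran from 0.04 to 0.15 with IAA and from 0.22 to 0.42 without. The 200 nearest probes measured on both arrays had median line differences of -0.02 with IAA and 0.06 without around CRHR1, and of 0.05 and 0.03 around PRLHR2.

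A limma fit with terms for line and IAA, run over 23100 probes, used both lines as repeats of the treatment and both treatments as repeats of the line. It has 1 residual degree of freedom. For IAA it gave CRHR1 an effect of -0.30 ± 0.08 (SE, limma adjusted p = 0.955) and PRLHR2 one of 0.02 ± 0.09 (limma adjusted p = 0.993). For the line, CRHR1 had -0.34 ± 0.08 (limma adjusted p = 0.213) and PRLHR2 0.21 ± 0.09 (limma adjusted p = 0.355). The fit called 0 of the 2 receptors and 0% of all probes in either term. Other settings, which also called 0 of the 2, called up to 0.472% of all probes for IAA and up to 12.9% for the line. At an unadjusted p under 0.05 the fit counted 1 of the 2, CRHR1, in each term, beside 4.87% of all probes for IAA and 18.8% for the line. CRHR1 lost that count in both terms under 5 of 6 other settings, kept it when the fit was limited to probes lit on all 4 arrays, and had an SE of 0.24 with a trend and robust prior. The IAA effect of CRHR1 was -0.17 with median scaling and -0.19 with quantile normalization, and normexp correction gave -0.02 for IAA and -0.04 for the line. The line effect of CRHR1 was -0.27 with median scaling and -0.27 with quantile normalization. For PRLHR2, the IAA effect was 0.16 with median scaling, 0.04 with quantile normalization and 0.03 with normexp correction. Its line effect was 0.28 with median scaling, 0.21 with quantile normalization and 0.13 with normexp. With normexp each gene with a symbol had the same SE of 0.08, so the calls there, 0.472% of all probes for IAA, follow effect size alone.

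Of 79 related ligands, sister receptors, accessory proteins and signalling genes listed beside the 10, 3 had a probe with a symbol: MC1R, NPY4R and NPY5R. MC1R, the melanocortin receptor that sets pigment type in melanocytes, was well above background on all 4 arrays. Its intensity was 22.6 units in IAA-treated OsTIR1 cells, 27.1 in untreated OsTIR1 cells, 19.4 in IAA-treated parental DT40 and 19.9 in untreated parental DT40. Both OsTIR1 arrays lay above both parental ones, with line differences of 0.22 with IAA (-0.36 to 0.81) and 0.49 without (-0.18 to 1.15) and a limma adjusted p of 0.255. MC1R was thus the 1 melanocortin receptor with a lit probe among the 4 named here.

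NPY5R, which like NPY1R is tied to feeding, carried the weaker flag on all 4 arrays and the stronger one on none. It had 3.37 units in IAA-treated OsTIR1 cells, 5.58 in untreated OsTIR1 cells, 7.23 in IAA-treated parental DT40 and 11.01 in untreated parental DT40. These values lie below the lowest intensity flagged well above background on each array, and no fold is given for them. NPY1R and NPY5R are neighbours in the annotation, with 0 genes between them. NPY4R, the receptor for pancreatic polypeptide, had the weaker flag in IAA-treated OsTIR1 cells alone, at 3.66 units. None of the 4 neuropeptide Y receptors was well above background on any array.

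Among the 5 receptors of other ligands that carry a symbol and couple to G proteins (CHRM4, OLFR4, OLFR6, OR51M1 and OR52R1, picked after the names were seen), 2 were lit on all arrays, 2 on some and 1 on none. Likeness of pattern was measured as the root mean square distance of levels centred on each gene's own mean over the 4 arrays, against the 21 other lit genes with a symbol. PRLHR2 was nearest to DNAJC27 at 0.03 and CHRNG at 0.04, and CRHR1 to GPHN at 0.13 and CKMT1B at 0.17. The farthest of the 21 from either was TENM2, at 0.94 from PRLHR2 and 1.22 from CRHR1. With 4 arrays these distances only describe the profiles.

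The identity of the cells could hardly be checked with these arrays. Of 15 listed B cell markers, 1 (RAG1) had a probe with a symbol, and it was not well above background on any array. Of 6 neuronal and 6 pituitary or adrenal markers, 0 had one. The 4 arrays lay on 1 slide, 0 spots were saturated, and 0 of the receptor spots carried an outlier flag.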

How the data were processed

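RNA from 4 cultures was labelled with Cy3 and hybridised to 1-colour Agilent arrays, each culture on its own array; groups follow the sample titles. Per the file headers, the deposited values are spot intensities from version 10.5.1.1 of Agilent Feature Extraction, which subtracted background, detrended each array and replaced signals too low to measure. The deposited series-level table holds the same intensity times a nearly constant factor per array (medians of 4.40 to 4.63, with a range over probes of at most 0.046 within an array, found by comparing the files; column medians of 55.9, 60.5, 58.8 and 65.6 for IAA-treated and untreated OsTIR1 cells and IAA-treated and untreated parental DT40). Its linear scale and direction follow from that match, and why it was multiplied is unknown. Symbols came from a RefSeq table of assembly GRCg7b, and 51 probes matched.

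Levels are log2 of processed intensity minus the array's 75th percentile over 42034 probes (168.1 and 171.5 units in IAA-treated and untreated OsTIR1 cells, 168.1 and 176.6 in IAA-treated and untreated parental DT40). The 1417 control spots were left out. Differences were counted at 1.5-fold where both spots were well above background. Where 1 spot of the pair was lit, a bound was taken against the dim spot or the lowest intensity flagged on its array, whichever was higher. Spot error did not enter these bounds. limma 3.58.1 in R 4.3.3 tested probes lit on at least 2 arrays, with Benjamini-Hochberg adjustment at 0.05. It was also run on simulated independent values with an assumed variance, which does not show what it can detect in these 4 arrays. Alternatives were median, quantile and cyclic loess scaling, normexp with offset 50, the series-level table, subtraction of the median of 200 neighbouring probes, other filters, flags and priors, and a 2-fold threshold. Normexp used the median spot signal with the median local background, in place of the mean signal first planned. All 10 receptors were named, with values on every array for those lit on at least 1, and for each receptor lit on all 4 arrays the 2 nearest profiles. Members, lists and settings were chosen with earlier results of these data known.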

Additional observations from a re-analysis of the deposited data

Results flagged for a closer look

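PRLHR2 moved in opposite directions with IAA in the lines, with 1 array per group: it was 0.08 lower in the OsTIR1 line (difference -0.08) and 0.13 higher in parental DT40. The IAA difference in the OsTIR1 line minus that in parental DT40 was -0.21, with a nominal interval from the spot errors of -0.78 to 0.37 that includes 0. The difference between the lines was not tested over cultures, and the sign in the OsTIR1 line turned to 0.02 with median scaling.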

How the results depend on the processing

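CRHR1 and PRLHR2 remained the 2 receptors detected on all 4 arrays with the weaker flag and against the 95th percentile of negative controls. An alternative chosen after seeing the data, without the array of untreated parental DT40, also left these 2. It could not have changed the count, as AVPR2 was lit on that array alone and the remaining receptors on none. In each of the 4 comparisons, 0 receptors measured on both arrays passed 1.5-fold under any scaling, background correction or the series-level table. Neighbour subtraction and the weaker flag gave 0 as well, and 0 passed 2-fold. The weaker flag added no receptor on both arrays of a pair, and the 1.5-fold count fixes the 2-fold count. The series-level table is the same intensity times a nearly constant factor. These 3 settings therefore could hardly differ from the main one. Of all probes, 1.91% to 6.39% passed 1.5-fold at the main setting, so 0 of 2 does not set the receptors apart. Shares of all probes for these alternatives are not given. limma called 0 receptors for IAA or line in the 6 alternatives run. With no filter, median scaling or quantile normalization it called 0% of all probes in either term. For IAA it also called 0% when limited to probes lit on all 4 arrays. In those settings 0 receptors called does not set the receptors apart. Over all probes it called 910 of 19436 (4.68%) for the line when limited to probes lit on all 4 arrays. Also for the line, it called 2970 of 23100 (12.9%) with a trend and robust prior and 2795 (12.1%) with normexp. For IAA it called 8 (0.0346%) with that prior and 109 (0.472%) with normexp. With normexp each gene with a symbol had the same SE of 0.08, so the calls there follow effect size alone. Adjusted p ran from 0.422 to 1 for the IAA effect of CRHR1 and from 0.100 to 0.839 for its line effect. For PRLHR2 these ran from 0.449 to 1 and from 0.169 to 0.464. CRHR1 differences with IAA ranged from -0.39 to -0.02 in the OsTIR1 line and from -0.24 to -0.02 in parental DT40. Of the differences and effects of CRHR1 and PRLHR2, 1 changed sign, the IAA difference of PRLHR2 in the OsTIR1 line. The IAA effect of MC1R, -0.10, became 0.03 with median scaling and 0.04 with normexp, and its line difference without IAA ranged from 0.24 to 0.59. Interval half-widths, which hold spot error alone, were 0.56 to 0.75 for the dim CRHR1 and 0.40 to 0.41 for PRLHR2.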
